A study of Mus musculus with 29 samples.

Results

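The difference in expression between CD150hi HSC and CD150neg MPP was taken within each mouse and compared between genotypes. It could be formed for 9 of the 10 mice of the series, 5 WT and 4 5A3+/del, and used 18 of the 29 libraries. The members were the mice whose code in the labels carries both a CD150hi HSC and a CD150neg library; 5A3+/del mouse 5 has no CD150neg library here and was left out. For each gene the gap was log2(FPKM + 1) in CD150hi HSC minus the same in CD150neg MPP of the same mouse, after quantile normalization, so that a positive gap is a higher level in HSC. FPKM count the fragments of a gene per kilobase of exon, scaled to the depth of the library. The genotype difference of the gap is the mean gap of 5A3+/del mice minus that of WT mice, and it is the genotype by population interaction.

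The WT mice (genotype WT/WT) were 12.42 to 13.28 weeks old and the 5A3+/del mice (WT/DEL) 12.42 to 13.85 weeks old, all on the C57BL/6J strain. The deletion is a heterozygous germ line loss of 2 Mb of band 5A3 on mouse chromosome 5, made with Cre recombinase in embryonic stem cells between loxP sites at Fbxl13 and Srpk2. Every cell of the mouse carries it, so the HSC and the MPP of a 5A3+/del mouse differ from WT at the same locus. Both populations were sorted from bone marrow as c-kit+ lineage- Sca-1+ CD41- CD48- cells and split by CD150. The labels call the CD150neg cells HSC, and the study calls them MPP, the name kept here. In these bulk libraries, fewer cells of a type and less RNA per cell cannot be told apart.

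Hematopoietic stem cells renew themselves and give rise to all blood lineages, and most of them are quiescent. The signaling receptor CD150, encoded by Slamf1, is carried by the cells with the longest repopulating activity and is lost as they become multipotent progenitors. At that step the receptor tyrosine kinase Flt3, the sialomucin CD34 and the first lymphoid genes come on, and genes of the stem cell state such as Mecom and Mllt3 decline. Cells leaving quiescence also increase protein synthesis and shift from glycolysis towards oxidative phosphorylation (OXPHOS).

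The sort was visible in every mouse of both genotypes. The gap of Slamf1 was 3.75 in WT and 3.83 in 5A3+/del mice on the log2 scale, with normalized FPKM of 14.4 ± 1.04 in HSC and 0.142 ± 0.0314 in MPP of WT mice (SD, n = 5). Slamf1 is the gene of the gated antigen, so this checks the sort only. The gap of Flt3 was -3.74 and -3.57, and that of Cd34 was -2.30 and -1.88. The genotype differences of these gaps were 0.08 for Slamf1 (95% interval -0.38 to 0.54), 0.18 for Flt3 (-0.38 to 0.74) and 0.42 for Cd34 (-0.19 to 1.04). None of the 3 passed the test.

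The 18 libraries held 21229490 to 33164483 fragments. WT mouse 3 stood apart by sex, with Xist at 302.7 FPKM in its HSC and 319 in its MPP against at most 0.470 in every other library of the comparison. Markers of mature granulocytes and monocytes were lower in HSC of most 5A3+/del mice than in HSC of WT mice. Over the 8 listed genes (S100a8, S100a9, Ngp, Camp, Ltf, Ly6g, Cd14 and Itgam) the summed FPKM was 61.9 to 914 in WT HSC and 17.9 to 131 in 5A3+/del HSC, against 23.0 to 135 in WT MPP and 14.3 to 262 in 5A3+/del MPP. Ly6g, which defines mature granulocytes, was at 0 in every 5A3+/del HSC library of the comparison and in every WT MPP library. The part of these cells in the results below was not tested.

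The deletion itself was present in both populations. Of the 8 genes of the interval in the fit, the 7 other than 5031425E22Rik had a median level in 5A3+/del mice of 50.9% of WT in HSC and 46.4% in MPP, and the gap of 5 of these differed between genotypes by -0.07 to 0.27. Mll5, a chromatin regulator of HSC, was at 37.2, 44.0, 44.6, 47.9 and 47.9 normalized FPKM in HSC of the 5 WT mice and at 19.7, 21.6, 25.6 and 27.7 in HSC of the 4 5A3+/del mice. In MPP it was at 47.0 to 55.9 in WT and at 23.6 to 29.7 in 5A3+/del mice. The genotypes did not overlap in either population, and the gap of Mll5 differed by 0.09 between genotypes (95% interval -0.38 to 0.57).

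Orc5, a subunit of the origin recognition complex whose exons overlap Gm15421 on the same strand, was at 41.8% of WT in HSC and 45.8% in MPP. Dnajc2, a ribosome-associated co-chaperone, was at 48.7% and 44.3%, and Pmpcb, a subunit of the mitochondrial processing peptidase, at 56.3% and 47.5%. Their gaps differed between genotypes by -0.07, 0.15 and 0.19, and Armc10 by 0.27. Psmc2, an ATPase subunit of the proteasome, showed the only negative difference of some size, -0.50 (unadjusted p = 0.0593), with 42.6% of WT in HSC and 64.0% in MPP. Napepld, a phospholipase that makes N-acylethanolamines, went the other way with 0.64 (unadjusted p = 0.0397), from 1.05 to 2.89 normalized FPKM in WT HSC and 0.138 to 1.63 in 5A3+/del HSC to 1.35 to 3.13 in WT MPP and 0.281 to 0.453 in 5A3+/del MPP. These are low levels, and Napepld had 0 to 159 fragments in a 5A3+/del HSC library and 11 to 57 in a 5A3+/del MPP library. As percent of WT, its 5A3+/del mean was 50.9% in HSC and 15.5% in MPP.

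On the log2(FPKM + 1) scale, the gene 5031425E22Rik had the largest genotype difference of the gap among the 8 interval genes. It lies beside the start of Mll5 on the other strand, at positions 22937628 to 22939737 of chromosome 5 (mm9, minus strand). In HSC its level was 8.49, 4.50, 5.61, 7.70 and 5.59 normalized FPKM in WT mice 1 to 5 and 10.7, 5.08, 3.51 and 6.06 in 5A3+/del mice 1 to 4. In MPP it was 7.34, 9.50, 8.45, 7.08 and 8.30 in WT mice and 2.77, 1.62, 2.17 and 5.48 in 5A3+/del mice. The genotypes overlapped in HSC and were apart in MPP, so that the 5A3+/del mean was 99.4% of WT in HSC and 37.0% in MPP. The genotype difference of the gap was 1.20 ± 0.35 (SE, 95% interval 0.42 to 1.98), with an unadjusted p of 0.00658 and an adjusted p of 0.629 (limma).

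**Figure D1:**
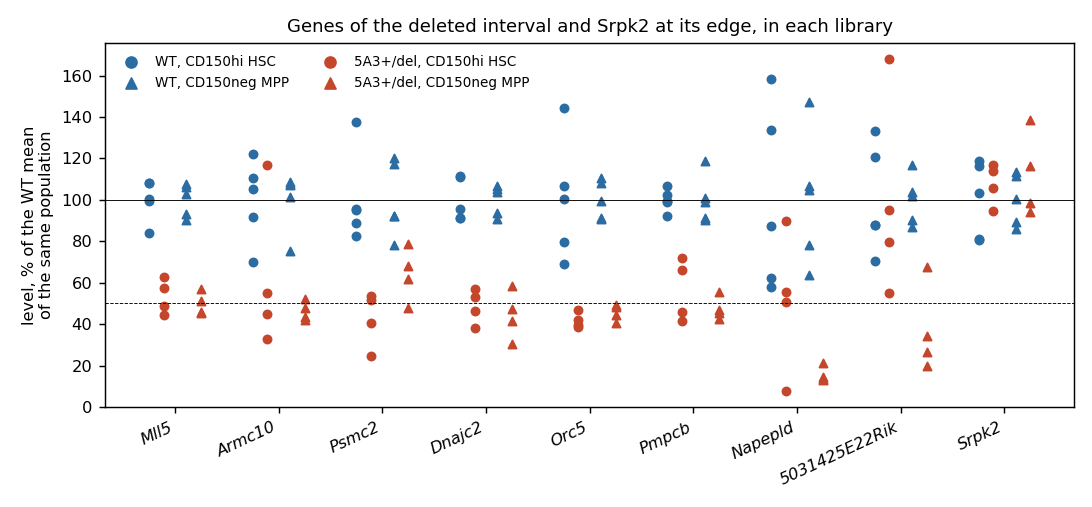
Level of the 8 listed interval genes and of Srpk2 in each of the 18 libraries, as percent of the WT mean of the same population (y axis), for CD150hi HSC (circles) and CD150neg MPP (triangles) of 5 WT (blue) and 4 5A3+/del (red) mice. Most red points lie near the dashed line at 50%. Those of Napepld are lower in MPP, where the mean was 15.5%. Those of 5031425E22Rik are spread in HSC, where the mean was 99.4%, and lower in MPP, where the mean was 37.0%.

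Of the 8 interval genes in the fit, 6 had a genotype difference above 0 and 2 below, with a median of 0.17 against 0.01 over all genes, and none passed the test. The median difference of 5A3+/del from WT was -0.83 in HSC and -1.01 in MPP on the log2 scale. Mouse 1 of the 5A3+/del mice set much of this, with a mean gap of 0.28 over the interval genes against 0.07 to 0.09 in the other 3; without it the median was 0.08. Srpk2, the kinase at the distal edge of the deletion, had a gap difference of -0.03. It overlaps Mll5 on the other strand, and whether reads were separated by strand is not given in the sources used here. Fbxl13 at the proximal edge was under the filter, with 0 to 16 fragments in each WT library of the comparison and 3 to 54 in each 5A3+/del library, and its gap did not differ by the exact permutation test over 9 mice (difference -0.01, two-sided p = 0.889).

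Across all genes, the gap was large in both genotypes and its genotype difference passed the test for no gene. A total of 15409 genes had at least 1 FPKM in at least 4 of the 29 libraries and were tested. In WT mice, 1022 genes (6.63%) had a gap at an adjusted p under 0.05, 568 higher in HSC and 454 higher in MPP. In 5A3+/del mice, 538 genes (3.49%) did, 305 higher in HSC and 233 higher in MPP. The WT group had 1 mouse more. With 4 WT mice the WT count was 558 to 692, and without 5A3+/del mouse 2, 3 or 4 the 5A3+/del count was 302, 286 and 302. Without 5A3+/del mouse 1 the 5A3+/del count stayed closer to 538.

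Of the genes called in WT mice, 935 of 1022 had a gap of the same sign in 5A3+/del mice, and 735 had it in 4 of 4 mice. Of the genes called in 5A3+/del mice, 527 of 538 had the same sign in WT mice. The 417 genes called in both genotypes had the same sign in both. For the interaction, limma called 0 of 15409 genes (0%) at an adjusted p under 0.05, and the smallest adjusted p was 0.316. It called 3 genes with no filter on low values, and 2 in fits over 19 libraries, which add the HSC library of 5A3+/del mouse 5, whether mouse was a random effect or was left out of the fit. Rpl12-ps1 was called in each of these, and a fit over 29 libraries without pairing called 0. At an unadjusted p under 0.05 there were 1072 genes (6.96%), with the gap higher in 5A3+/del mice in 499 (3.24%) and lower in 573 (3.72%). The gaps of the 5 WT and 4 5A3+/del mice did not overlap for 450 genes (2.92%), of which 196 were higher and 254 lower in 5A3+/del mice.

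The genotype difference of the gap had quartiles of -0.24 and 0.24 and a median of 0.01 on the log2 scale. Its median SE was 0.29, so that a gene of median error had a 95% interval of 0.64 to either side. This interval is not adjusted for the number of genes, and the test needed larger differences: Rpl12-ps1, at -1.17 ± 0.17 (SE), was not called. Among the 450 genes without overlap, the genotypes differed more in HSC for 351 and more in MPP for 99, and in 394 the HSC and MPP differences had opposite signs. The genotype difference of the gap is the HSC difference minus the MPP difference, so choosing separated gaps favours opposite signs. The shares over all genes are not given here, so these counts are a description only.

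**Figure D2:**
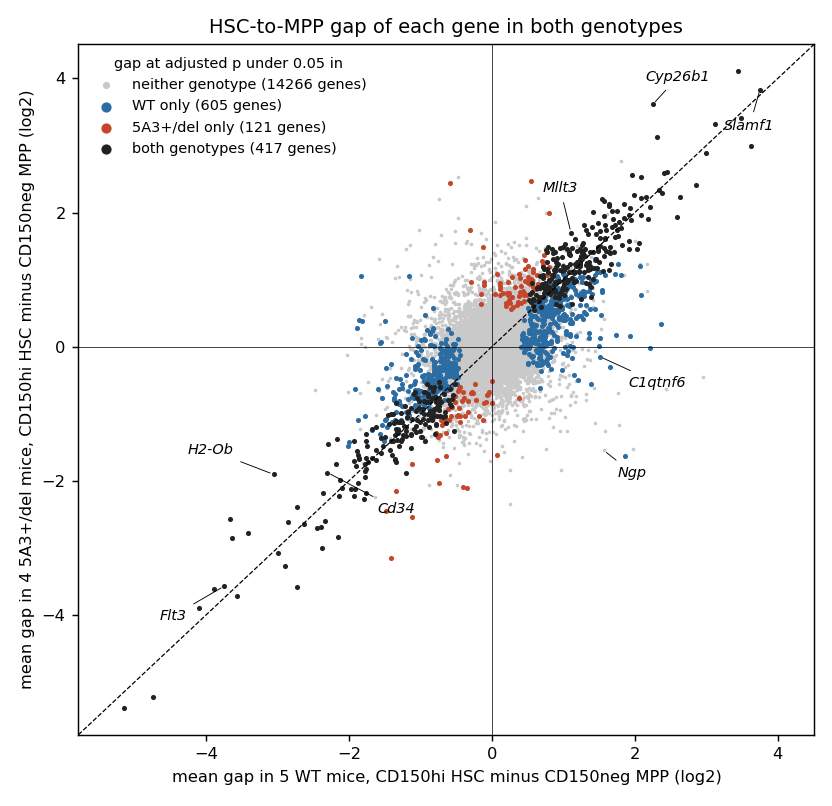
Mean gap of each of 15409 genes in 5 WT mice (x axis) and in 4 5A3+/del mice (y axis), both CD150hi HSC minus CD150neg MPP in log2(FPKM + 1) after quantile normalization, with genes coloured by the genotype in which the gap had an adjusted p under 0.05. The 417 genes called in both genotypes lie along the dashed line of equal gaps, and Cyp26b1 and H2-Ob lie above it.

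The size of the gap as a whole was compared with a single value per mouse. The gaps of a mouse over all genes were regressed on the mean gaps of the other 8 mice, with WT and 5A3+/del mice weighted equally, and the slope says how much of the common gap that mouse shows. It was 0.743, 0.744, 0.681, 0.805 and 0.757 in WT mice 1 to 5 and 0.702, 0.675, 0.660 and 0.644 in 5A3+/del mice 1 to 4. Only WT mouse 3 lay within the 5A3+/del range. The mean was 0.746 ± 0.044 in WT (SD, n = 5) and 0.670 ± 0.025 in 5A3+/del mice (SD, n = 4), a difference of -0.076 (exact two-sided permutation test over mice, p = 0.0238, Benjamini-Hochberg adjusted p = 0.0476 over 2 measures). The slopes were computed once with the true genotypes and were not recomputed in the permutations. Each mouse also enters the references of the other 8, so the slopes are not independent and their p-values are approximate.

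A slope is pulled down by noise in the values it is regressed on, and the mean for a 5A3+/del mouse rests on fewer 5A3+/del mice. With 4 WT and 3 5A3+/del mice behind every slope, the difference was -0.060 (exact permutation p = 0.0476, adjusted p = 0.0952 over 2 measures), which is past the threshold only before adjustment. Without WT mouse 1, 2, 4 or 5 the differences were -0.063, -0.065, -0.051 and -0.040, and without quantile normalization -0.071 (exact permutation p = 0.0952), none past the threshold. Of 18 alternatives, 9 gave an unadjusted p under 0.05 and 2 an adjusted one, and none of the 9 fits with 1 mouse left out did after adjustment. Without a WT mouse, 4 mice are compared with 4, and the exact permutation p cannot go below 0.0286. With the other measure far above the threshold, the adjusted p then cannot go below 0.0571. The fits without a WT mouse therefore could not pass after adjustment, whatever the slopes. The other measure, the SD of the gap over genes, was 0.717 ± 0.093 in WT and 0.705 ± 0.160 in 5A3+/del mice (exact permutation p = 0.881), and ranged from 0.557 to 0.916 among the 5A3+/del mice. The correlation of the gaps over genes between 2 mice had a median of 0.286 for the 10 WT pairs, 0.235 for the 6 5A3+/del pairs and 0.222 for the 20 mixed pairs, which share genes and mice and are given as a description.

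**Figure D3:**
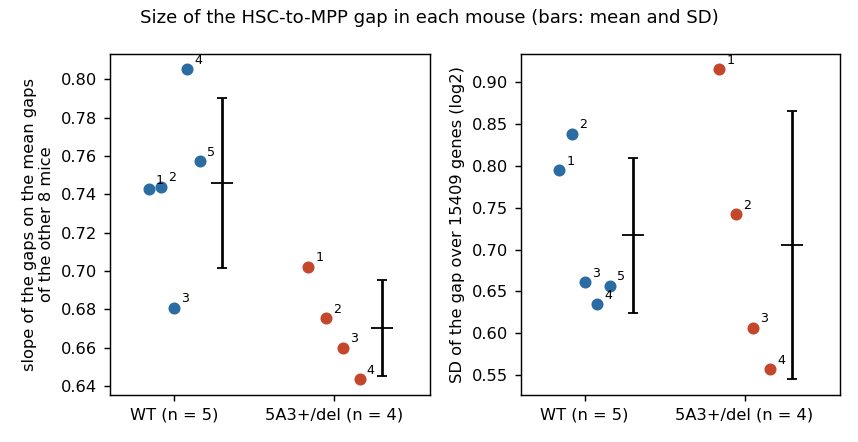
Slope of each mouse's gaps on the mean gaps of the other 8 mice (left) and SD of its gap over genes in log2 units (right), for 5 WT and 4 5A3+/del mice, with the replicate number beside each point and the mean and SD as a bar. The slopes of the 5A3+/del mice reach from 0.644 to 0.702, below all WT mice but WT mouse 3 at 0.681; the SDs of the genotypes overlap widely.

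Genes of the stem cell state had median gaps of near size in both genotypes, a comparison made without a test. Of 28 genes listed as HSC-enriched, all were tested, and 22 had a called gap in WT mice and 21 in 5A3+/del mice, all higher in HSC. The median gap was 1.38 and 1.33, and 14 genes had a genotype difference above 0 and 14 below, with a median of -0.02. The von Willebrand factor gene Vwf had a gap of 2.16 in WT and 2.24 in 5A3+/del mice, and Mecom, a transcription factor required by HSC, one of 0.87 and 0.92. Both were chosen as examples after their values were seen.

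Mllt3, a chromatin reader that supports HSC self-renewal, had the smallest unadjusted p of this list. Its level in HSC was 30.6, 32.3, 28.8, 34.8 and 29.8 normalized FPKM in WT mice 1 to 5 and 53.4, 47.9, 40.8 and 35.4 in 5A3+/del mice 1 to 4. MPP had 12.2 to 17.3 of it in the WT mice and 12.3 to 13.3 in the 5A3+/del mice. The genotypes were apart in HSC and overlapped in MPP. The gap was 1.11 in WT and 1.70 in 5A3+/del mice, a difference of 0.59 ± 0.20 (SE, unadjusted p = 0.0133, adjusted p = 0.663, limma). Hoxb5, a homeobox gene of long-term HSC, had a gap of 1.66 and 1.24 (difference -0.43, adjusted p = 0.706), with a mean level of 1.38 in WT and 2.87 normalized FPKM in 5A3+/del MPP. Its own sequence is overlapped by a transcript on the other strand, 0610040B09Rik.

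Lymphoid priming genes also had near median gaps, again without a test. Of 18 listed, 15 were tested, 11 had a called gap in WT and 10 in 5A3+/del mice, all higher in MPP, and the median gap was -1.35 and -1.37. The chromatin organizer Satb1 had a gap of -2.14 and -2.22, again chosen after its values were seen. Ccr9, a chemokine receptor of thymus-seeding progenitors, was at 2.49, 3.56, 1.16, 4.36 and 2.69 normalized FPKM in WT MPP and at 1.30, 0.494, 1.20 and 0.938 in 5A3+/del MPP, with 0.253 to 0.859 in HSC of both genotypes. Only WT mouse 3, at 1.16, lay within the 5A3+/del range in MPP. The gap of Ccr9 was -1.35 and -0.46, a difference of 0.89 ± 0.26 (SE, unadjusted p = 0.00602, adjusted p = 0.629, limma). Its exons overlap Gm17200 on the same strand, and Gm17021 and Slc6a20a on the other.

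Dntt, the terminal transferase of early lymphoid cells, had gaps of -3.66 and -2.57. Its difference of 1.09 (adjusted p = 0.743) rested on 5A3+/del mouse 1, whose gap was -0.08 against -3.58 to -3.28 in the other 3. That mouse had 2.46 normalized FPKM of Dntt in HSC and 2.67 in MPP, whereas the other 3 had at most 0.189 in HSC and 8.75 to 13.2 in MPP.

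The other lineage lists had no gene past the test. Megakaryocyte genes had a median gap of 0.43 in WT and 0.60 in 5A3+/del mice, with 5 called in each genotype and higher in HSC. Of 12 tested, 7 had a difference above 0 and 5 below. Itgb3, a subunit of the fibrinogen receptor of platelets, had a gap of 1.54 and 2.19, and Rab27b, a small GTPase of platelet granules, one of 1.25 and 0.71. They were 0.66 higher and 0.54 lower in 5A3+/del mice, with adjusted p-values of 0.676 and 0.691, and each had no overlap between genotypes. Granulocyte and monocyte priming genes had 5 of 13 above 0 and 8 below (median -0.23), with differences of 0.50 for the cytokine receptor subunit Csf2rb and -0.46 for the protease Prtn3, which is overlapped on the other strand by BC005764. The summed level of these 17 listed genes was 288 to 332 FPKM in WT HSC and 288 to 344 in 5A3+/del HSC. Erythroid genes had 7 of 10 above 0 (median 0.07), with 0.37 for the transferrin receptor Tfrc and 0.44 for the globin gene Hbb-b1, whose reads may be shared with its near-identical copy Hbb-b2.

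The 25 genes annotated as protein-coding with the smallest unadjusted p among those without overlap and with a mean of at least 5 normalized FPKM in 1 of the 4 groups comprised 10 with a higher and 15 with a lower gap in 5A3+/del mice. None passed the test after adjustment. The absence of overlap chose these genes, so it is no support for them. In 21 of the 25 the mean gap had opposite signs in WT and 5A3+/del mice, and in 22 the genotypes differed more in HSC than in MPP. A choice by separated gaps also favours gaps of opposite sign, and neither count is set beside a share over all genes. The HSC library of 5A3+/del mouse 5, which has no MPP library and so did not enter the choice, was closer to the mean of the other 4 5A3+/del mice than to the WT mean for 14 of the 25 genes and closer to WT for 11. It lay within the WT range for 13, and on the same side of the WT mean as the mean of the other 4 for 22.

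Cyp26b1, which degrades retinoic acid, had the largest gap towards HSC of this set in both genotypes. Its level in HSC was 3.54, 4.48, 4.68, 3.66 and 4.33 normalized FPKM in WT mice 1 to 5 and 13.2, 19.1, 13.2 and 7.85 in 5A3+/del mice 1 to 4. In MPP it was at 0.020 to 0.144 in the WT mice and 0.009 to 0.235 in the 5A3+/del mice, with at most 35 fragments in any library. All 4 5A3+/del mice were above all WT mice in HSC, by 3.23 times in the mean, and the genotypes overlapped in MPP. The gap was 2.25 in WT and 3.61 in 5A3+/del mice, a difference of 1.36 ± 0.21 (SE, 95% interval 0.88 to 1.84), with an unadjusted p of 8.17e-05 and an adjusted p of 0.351 (limma). The HSC library of 5A3+/del mouse 5 had 4.76 normalized FPKM, just above the highest WT value. Cyp26b1 lies on chromosome 6 (mm9, 84521938 to 84543740, minus strand).

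H2-Ob, the beta chain of the class II-like molecule H2-O that limits peptide loading, had the opposite direction of gap, with high levels in MPP. In HSC it was at 0.575, 1.39, 2.88, 2.01 and 1.78 normalized FPKM in WT and at 3.26, 3.98, 3.66 and 3.86 in 5A3+/del mice. Its level in MPP was 17.2 to 22.8 and 14.0 to 19.4. The genotypes were apart in HSC and overlapped in MPP. The gap was -3.05 in WT and -1.90 in 5A3+/del mice, a difference of 1.15 ± 0.22 (SE, unadjusted p = 3.51e-04, adjusted p = 0.551, limma). The HSC library of 5A3+/del mouse 5 had 2.19, within the WT range.

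Of the 25 genes, 3 of those with mean gaps of opposite sign are known for work on RNA and were picked for this after their values were seen, in both directions and without a test of the group. Clp1, a kinase of pre-mRNA cleavage and tRNA splicing, was at 2.97, 2.42, 3.20, 1.75 and 2.31 normalized FPKM in HSC of WT mice and at 4.33, 6.21, 5.17 and 6.73 in HSC of 5A3+/del mice. The genotypes were apart in HSC and overlapped in MPP, at 4.22 to 6.28 and 2.19 to 7.16. The gap of Clp1 was -0.84 and 0.23 (difference 1.07 ± 0.26 SE, adjusted p = 0.606, limma), and 5A3+/del mouse 5 had 4.62 in HSC, above the WT range. The splicing factor Rbm17 had a gap of -0.37 and 0.36.

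Snrpb, a core protein of the spliceosomal snRNPs, went the other way. It was at 38.9, 30.3, 31.4, 28.3 and 33.4 normalized FPKM in HSC of WT mice and at 17.4, 21.4, 21.7 and 20.1 in HSC of 5A3+/del mice, and at 19.3 to 25.9 and 21.5 to 30.6 in MPP. Its gap was 0.51 and -0.34 (difference -0.86 ± 0.20 SE, adjusted p = 0.579, limma), and 5A3+/del mouse 5 had 28.6 in HSC, within the WT range. Pih1d1, a subunit of the R2TP chaperone that assembles snoRNPs and kinases, was at 10.3, 19.9, 12.6, 18.7 and 18.9 in WT HSC and at 7.49, 7.05, 9.85 and 7.47 in 5A3+/del HSC, with gaps of 0.99 and -0.09. Its exons overlap Aldh16a1 on the other strand.

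For 3 of the 25 genes the genotypes differed more in MPP. C1qtnf6, which encodes a secreted protein related to C1q and TNF, was at 2.31, 0.906, 1.34, 4.21 and 2.36 normalized FPKM in MPP of WT mice and at 2.72, 11.0, 5.58 and 3.64 in MPP of 5A3+/del mice, with gaps of 1.51 and -0.15 (difference -1.66 ± 0.36 SE, adjusted p = 0.551, limma). The levels overlapped between genotypes in both populations and only the gaps within mice did not. The glutathione transferase gene Gstm5, overlapped by 4933431E20Rik on the other strand, was at 4.57 to 7.25 in WT MPP and 8.05 to 16.7 in 5A3+/del MPP, with gaps of 1.14 and 0.00. Slc9a3r2, a scaffold of membrane transporters, had gaps of 0.42 and -0.81.

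**Figure D4:**
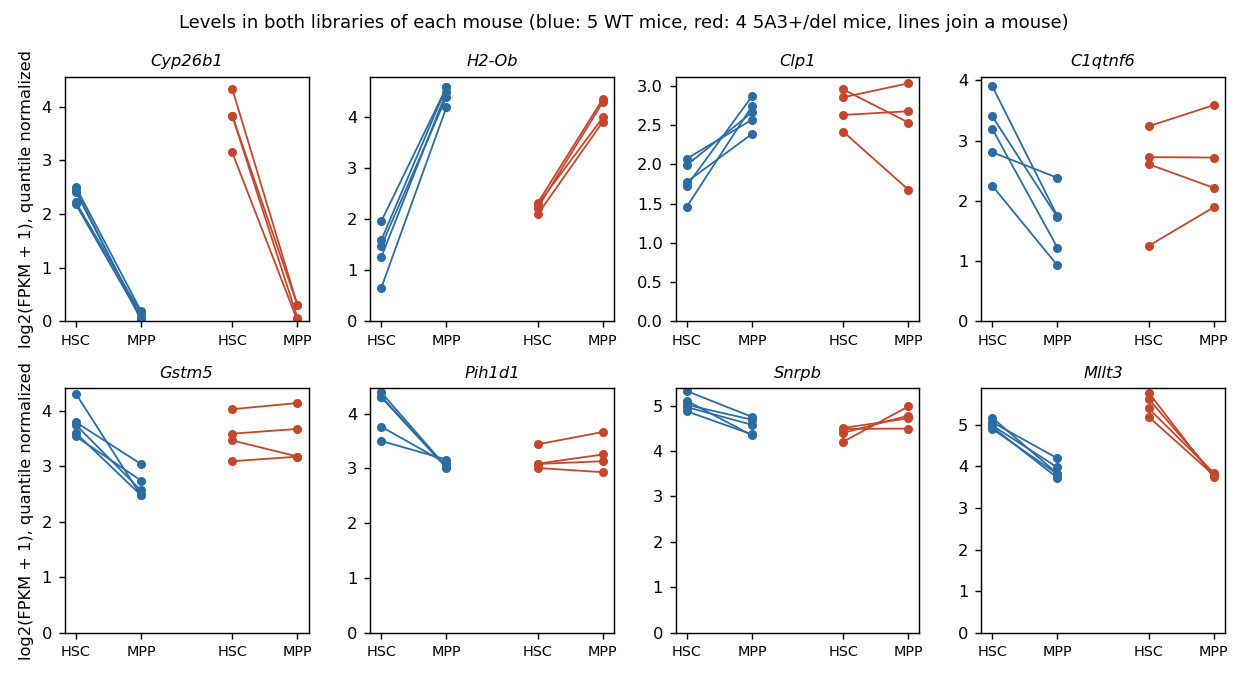
Normalized level, log2(FPKM + 1), in CD150hi HSC and CD150neg MPP of each mouse for 8 genes, with lines that join the 2 libraries of a mouse (blue, 5 WT; red, 4 5A3+/del). Red and blue HSC points are apart for Cyp26b1, H2-Ob, Clp1, Pih1d1, Snrpb and Mllt3, and those of C1qtnf6 and Gstm5 overlap.

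Beside the histone genes and Rpl7l1, described with their groups, the remaining genes of the set with a higher gap in 5A3+/del mice were Cyb5d1, which overlaps Lsmd1 (gaps of -0.83 and 0.28), CAAA01180111.1.44494.1 (-0.55 and 0.67), the G-patch protein gene Gpatch2 (-0.16 and 0.63), the small heat shock protein gene Hspb6, which overlaps Lin37 and BC053749 (0.07 and 1.08), and the ubiquitin ligase gene Rnf170 (-0.39 and 0.48). Those with a lower gap included Ogfr, the opioid growth factor receptor (0.34 and -0.61), Mocs1, of molybdenum cofactor synthesis (0.36 and -0.64), the nuclear import receptor gene Ipo13 (0.85 and -0.06) and 3110082I17Rik (0.31 and -0.57). Rpl12-ps1 (0.83 and -0.34), Rpl21-ps11 (1.07 and -0.06) and Gm10343 (0.63 and -0.24) also belonged to it. The first 2 are named as copies of ribosomal protein genes and may share reads with them, so their values are uncertain.

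Ribosomal protein genes had a lower median gap in 5A3+/del mice than in WT mice, and no single gene passed the test. Of 85 listed cytosolic ribosomal protein genes, 83 were tested, 19 had a genotype difference above 0 and 64 below, against 7843 above and 7565 below among all genes. The median difference was -0.17. The median gap was 0.21 in WT and 0.09 in 5A3+/del mice, and the 5A3+/del minus WT difference was -0.19 in HSC and -0.03 in MPP. In 10 of the 83 the gaps did not overlap between genotypes, all 10 with the lower gap in 5A3+/del mice, where 2.92% of all genes had no overlap. By the unadjusted p there was no such excess, with 4 of the 83 (4.82%) under 0.05 (limma) against 6.96% of all genes. The mean gap over the list was 0.18, 0.23, 0.21, 0.16 and 0.30 in WT mice 1 to 5 and 0.15, 0.06, 0.08 and -0.04 in 5A3+/del mice 1 to 4. The genotypes were apart only narrowly, with WT mouse 4 at 0.1575 and 5A3+/del mouse 1 at 0.1543.

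Rpl7l1, a ribosome biogenesis factor related to Rpl7, was at 19.8, 25.1, 19.8, 20.4 and 21.2 normalized FPKM in HSC of WT mice and at 12.5, 10.9, 14.1 and 14.6 in HSC of 5A3+/del mice, with gaps of 0.51 and -0.26 (difference -0.77 ± 0.19 SE, adjusted p = 0.621, limma). The HSC of 5A3+/del mouse 5 had 21.3 of it, within the WT range. Rpl12 of the large subunit, which overlaps Lrsam1 and Snora65, had gaps of 0.34 and -0.23. Near-identical processed copies of most of these genes exist, so single values are uncertain. Among all 1257 pseudogenes tested, 567 had a difference above 0 and 690 below, with 12.6% at an unadjusted p under 0.05 beside 6.96% of all genes.

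Genes for OXPHOS subunits had a median difference of the same sign. Of 76 nuclear genes for complexes I to V, 25 had a genotype difference above 0 and 51 below, with a median of -0.11. Their median gap was 0.14 in WT and -0.03 in 5A3+/del mice, and none had a called gap in either genotype. The 5A3+/del minus WT difference had a median of -0.19 in HSC and -0.04 in MPP. In 6 (of 76, against 2.92% of all genes) the gaps did not overlap, all 6 lower in 5A3+/del mice. By the unadjusted p, 5 of the 76 (6.58%) were under 0.05 (limma), no more than the 6.96% of all genes. The mean gap over the list was 0.21, 0.11, 0.06, 0.07 and 0.22 in WT mice 1 to 5 and -0.14, -0.01, 0.06 and 0.01 in 5A3+/del mice 1 to 4. Only 5A3+/del mouse 3 lay within the WT range.

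By complex, the difference was below 0 for 26 of 36 genes of complex I (median -0.10), 3 of 4 of complex II (-0.21), 5 of 9 of complex III (-0.08), 6 of 12 of complex IV (-0.01) and 11 of 15 of complex V (-0.20). Atp5e, the epsilon subunit of ATP synthase, was at 76.7, 65.2, 42.0, 54.8 and 67.0 normalized FPKM in HSC of WT mice and at 41.1, 30.1, 39.1 and 32.7 in HSC of 5A3+/del mice, and at 34.7 to 48.5 and 34.4 to 42.2 in MPP. The genotypes were apart in HSC and overlapped in MPP. Its gap was 0.55 and -0.12 (difference -0.67 ± 0.22 SE, adjusted p = 0.661, limma).

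Cox5b of complex IV had gaps of 0.44 and -0.27 (adjusted p = 0.629), with 50.4 to 64.5 normalized FPKM in WT HSC and 26.8 to 51.3 in 5A3+/del HSC. Ndufv2 of complex I had gaps of 0.30 and -0.26 (adjusted p = 0.629). Ndufa6 had 0.59 and -0.52, with 5A3+/del mouse 1 at -2.12 and the other 3 at -0.10 to 0.11. For complex II, Sdhb and Sdhd differed by -0.25 and -0.22. For complex III, Uqcrq and Uqcr11 differed by -0.35 and -0.32. Cox7a2 of complex IV and Atp5j2 of complex V differed by -0.57 and -0.49.

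The 13 protein-coding genes of the mitochondrial genome had the opposite direction to the nuclear OXPHOS genes. Of these, 10 had a difference above 0 and 3 below, with a median of 0.14. mt-Nd5, a subunit of complex I whose gene overlaps mt-Nd6, was at 565, 499, 510, 551 and 459 normalized FPKM in HSC of WT mice and at 631, 889, 869 and 1226 in HSC of 5A3+/del mice, and at 557 to 1009 and 644 to 847 in MPP. The genotypes were apart in HSC, and the gap was -0.50 and 0.21 (difference 0.70 ± 0.26 SE, unadjusted p = 0.0222, adjusted p = 0.691, limma). mt-Co1 differed by 0.52. It is among the highest values of each library, where quantile normalization gives libraries equal values by rank.

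The mean gap over the mitochondrial genes ranged from -0.72 to 0.20 among WT mice and from -0.49 to 0.41 among 5A3+/del mice. The share of mitochondrial rRNA in a library, another product of this genome, was higher in HSC than in MPP by 9.0, 4.2, -4.1, 3.2 and 1.9 percentage points in WT mice 1 to 5 and by 3.9, 0.5, -2.2 and 3.2 in 5A3+/del mice 1 to 4. The median of the list was -0.00 without 5A3+/del mouse 4 and 0.34 without 5A3+/del mouse 1.

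Mitochondrial ribosomal protein genes had 25 of 73 differences above 0 and 48 below (median -0.09). Mrpl11 had gaps of 0.56 and -0.35, and Mrpl9 had gaps of -0.48 and 0.27, so the 2 genes with the smallest p differed in direction (adjusted p = 0.629 and 0.651, limma). Proteasome genes outside the interval had 11 of 30 above 0 (median -0.05), with -0.38 for Psmb1 and -0.36 for Psmd12. Antioxidant genes had 5 of 21 above 0 and 16 below (median -0.22). Gpx4, which reduces lipid peroxides, was at 18.1 to 28.3 normalized FPKM in WT HSC and 6.84 to 17.7 in 5A3+/del HSC, with gaps of 0.70 and -0.22 (difference -0.92 ± 0.25 SE, adjusted p = 0.624, limma). Prdx2, a peroxiredoxin overlapped by Rnaseh2a on the other strand, differed by -0.47. The mean gap of the antioxidant list was -0.25 in 5A3+/del mouse 1 and 0.02 to 0.04 in the other 3, against 0.02 to 0.23 in WT mice.

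The remaining metabolic lists showed no common direction. TCA cycle genes had 9 of 16 above 0 (median 0.09), with -0.43 for Fh1 and -0.37 for Suclg1, the 2 with the smallest p. Glycolysis genes had 10 of 19 above 0 (median 0.06). Pkm2, a pyruvate kinase gene, was at 69.5, 65.6, 75.8, 68.4 and 71.1 normalized FPKM in HSC of WT mice and at 98.7, 98.3, 97.2 and 91.2 in HSC of 5A3+/del mice, apart in every mouse, and at 94.2 to 123 and 99.5 to 113 in MPP. Its gap was -0.59 and -0.10 (difference 0.48 ± 0.17 SE, unadjusted p = 0.0191, adjusted p = 0.691, limma). Pfkp, a phosphofructokinase gene that overlaps Pitrm1, differed by 0.70.

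**Figure D5:**
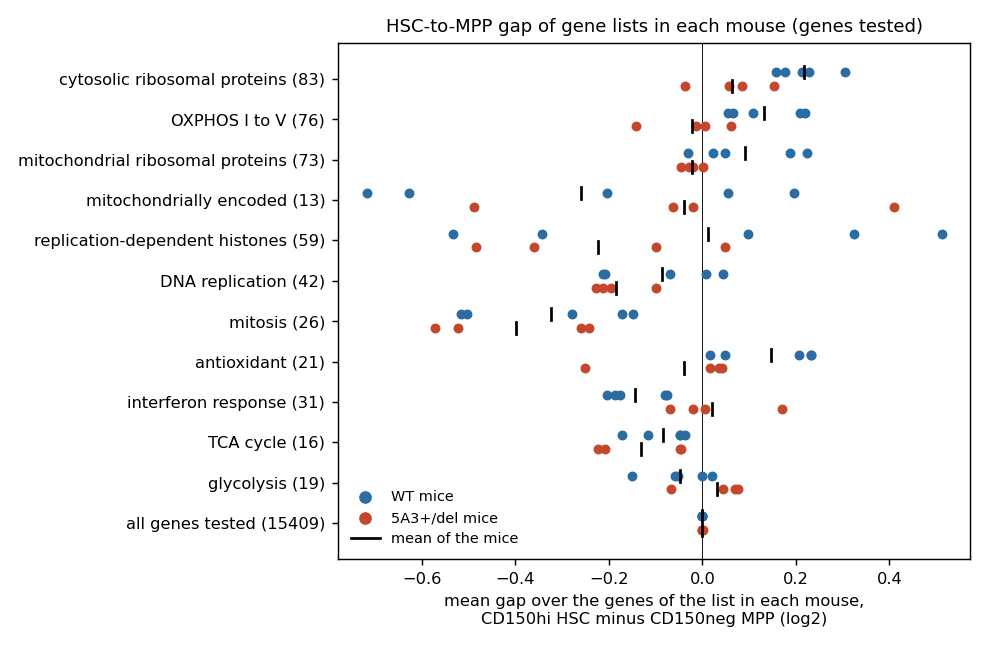
Mean gap over the tested genes of 11 lists and of all genes in each mouse (x axis, CD150hi HSC minus CD150neg MPP in log2 units; number of genes in parentheses), for 5 WT (blue) and 4 5A3+/del (red) mice, with the mean of the mice as a bar. The mice of the genotypes do not overlap, by a very narrow margin, for the cytosolic ribosomal protein genes and the interferon list. They overlap for the other lists, the mitochondrially encoded genes and mitosis among them.

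Genes of cell division had median gaps below 0 in both genotypes, and no genotype difference of the gap passed the test. DNA replication genes had a median gap of -0.09 in WT and -0.17 in 5A3+/del mice, with 18 of 42 differences above 0 and 24 below. Mcm10, of the replication fork, was at 0.528 to 1.66 normalized FPKM in WT MPP and 1.80 to 2.52 in 5A3+/del MPP, with gaps of -0.09 and -0.82, the latter at an adjusted p of 0.0146. The difference of -0.74 had an adjusted p of 0.624 (limma). Mcm5, a subunit of the replicative helicase, had gaps of 0.03 and -0.46.

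Mitosis genes had a median gap of -0.32 and -0.43, with 8 of 26 differences above 0 and 18 below (median -0.19). The 2 genes with the smallest p went against the list. Cdc20, an activator of the anaphase-promoting complex that overlaps Elovl1, had gaps of -0.87 and 0.20, with 1.80, 2.73, 2.51, 3.54 and 4.05 normalized FPKM in HSC of WT mice and 11.2, 3.52, 3.33 and 6.05 in HSC of 5A3+/del mice. The spindle checkpoint kinase Ttk had gaps of -0.79 and 0.20. Adjusted p-values of the difference were 0.621 and 0.691.

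Replication-dependent histone genes, whose mRNAs are made in S phase and mostly end without a poly(A) tail, had 15 of 59 differences above 0 and 44 below (median -0.28). Hist1h2ak was at 16.8 to 31.4 normalized FPKM in WT HSC and 7.87 to 11.9 in 5A3+/del HSC, with gaps of 0.67 and -0.61, and Hist1h4a had gaps of 0.43 and -0.86. The adjusted p of both differences was 0.551. The mean gap over this list spread from -0.53 to 0.51 among WT mice and from -0.48 to 0.05 among 5A3+/del mice, so the genotypes overlapped. These genes have near-identical coding sequences, and their reads may be split among copies.

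Interferon response genes had 20 of 31 differences above 0 and 11 below (median 0.16), with a 5A3+/del minus WT difference of 0.31 in HSC and 0.08 in MPP. The mean gap over the list was -0.08, -0.20, -0.18, -0.08 and -0.19 in WT mice 1 to 5 and -0.07, 0.17, -0.02 and 0.01 in 5A3+/del mice 1 to 4. The genotypes were apart only narrowly, with WT mouse 4 at -0.0755 and 5A3+/del mouse 1 at -0.0685. Oas3, a sensor of double-stranded RNA, had gaps of -0.69 and -0.06, and Usp18, a negative regulator of the interferon receptor, gaps of -0.14 and 0.59 (adjusted p of the differences 0.691 and 0.706, limma). Immediate early and heat shock genes, which rise during cell handling, had 14 of 26 differences above 0 (median 0.01), with -0.45 for Ier2 and -0.58 for Jund, which overlaps Gm11175.

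Markers of other cell types gave the largest values of any list. For the 6 tested genes of mature granulocytes and monocytes, the genotype difference had a median of -2.56, with 5 below 0 and 4 of the 6 at an unadjusted p under 0.05, against 6.96% of all genes. The neutrophil granule gene Ngp was at 107, 20.4, 12.2, 5.91 and 17.1 normalized FPKM in HSC of WT mice and at 0.904, 2.18, 1.58 and 2.54 in HSC of 5A3+/del mice. Its MPP levels were 28.6, 6.68, 1.63, 5.25 and 3.55 in WT and 0.306, 6.14, 20.3 and 19.1 in 5A3+/del mice. All WT mice were above all 5A3+/del mice in HSC, and the MPP libraries overlapped. The difference of the gap was -3.10 ± 0.70 (SE, unadjusted p = 0.00128, adjusted p = 0.551, limma), and Ltf, the lactoferrin gene, differed by -1.95.

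The mean gap of these granulocyte markers was 2.14, 2.44, -0.19, 0.19 and 1.27 in WT mice 1 to 5 and 0.28, 0.34, -2.95 and -1.78 in 5A3+/del mice 1 to 4. The 3 mice with the highest values, WT mice 1, 2 and 5, were also those with the highest mean OXPHOS gap, and the lowest OXPHOS gap was in 5A3+/del mouse 1. The part of granulocyte content in the OXPHOS and ribosomal protein values was not tested. Summed markers of mast cells reached at most 4.03 FPKM and those of stroma 3.52 in any library of the comparison. B cell markers summed to 6.52 to 31.8 FPKM, mostly from Cd79b, with Ms4a1 at 0 in each library, and T and NK cell markers to 7.42 to 22 in HSC and 24.9 to 59.9 in MPP. The gap differences were -0.15 and 0.05 for the B cell genes Cd79a and Cd79b, 0.68 and -0.50 for the T cell genes Lck and Cd4, -0.89 for the mast cell gene Cpa3, and -0.46 and 0.31 for the endothelial genes Cdh5 and Kdr.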

How the data were processed

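RNA from sorted CD150hi HSC and CD150neg MPP was amplified from 10 ng and sequenced with paired-end reads. The authors deposited FPKM per gene for 30025 genes. The submitters' processing notes name Bowtie 0.12.2, HTSeq and mm9. The study's own analysis used read coverage of a single coding exon per gene, which differs from FPKM. Libraries were assigned to mice by the code in the labels, so that the 2 libraries of a mouse are paired by animal; the correlation of libraries of 1 mouse around the group means was 0.105. Codes were taken as separate mice.

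Genes with at least 1 FPKM in at least 4 of 29 libraries were transformed as log2(FPKM + 1) and quantile normalized over 29 libraries; normalized FPKM are these values transformed back, and differences on this scale understate those of low genes. limma 3.58.1 (R 4.3.3) was fitted to the gaps of 9 mice with a mean per genotype, two-sided, with Benjamini-Hochberg adjustment over 15409 genes. The fit was tested on simulated data. Values per mouse were compared by exact permutation of the finished values, whose smallest p is 0.00794. For the slopes, which share mice, these p-values are approximate. Lists were described by counts and medians without a test. Fragments per library came from the steps of FPKM times exon length (98.4% to 98.78% of low values whole within 0.05); amplified fragments are not independent molecules, so depth covers counting error only. Positions are those of the mm9 annotation, to which 97.5% of the genes matched.

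The members and lists were chosen with earlier results of these data known. The genes named are those passing the interaction test (none), the 25 protein-coding genes with the smallest p without overlap and with at least 5 normalized FPKM in a group, the interval genes, the 2 genes with the smallest p of each list, and Slamf1, Flt3, Cd34 and the sex genes. The quality weights, robust prior, voom on fragments, the equal references for the slope and the fit without the 3 mice with the largest gap SD (WT mice 1 and 2 and 5A3+/del mouse 1) were added after seeing the data. Pairing was removed in an alternative fit. Vwf, Mecom and Satb1 were named after their values were seen. Some genes that the rule counts are not reported here by name.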

Additional observations from a re-analysis of the deposited data

Results flagged for a closer look

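Among 252 groups of 4 or 5 mice, 19 (7.54%) had a mouse far from the others by Dixon's test at its 95% critical value, and chance flags about 1 in 20. In 5A3+/del mouse 1 the gap was -2.12 for Ndufa6, -0.083 for Dntt, -0.79 for Gpx4 and 1.76 for Kdr. The other 3 mice reached from -0.10 to 0.11, -3.58 to -3.28, -0.05 to 0.01 and 0.49 to 0.64. The mean gap of the same mouse was -0.45 over complex II (others -0.03 to 0.03), -0.25 over antioxidant genes (0.02 to 0.04) and 0.28 over the interval genes (0.07 to 0.09).

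In 5A3+/del mouse 2 the gap was 0.78 for Uqcr11, -0.71 for Cox7a2 and -1.13 for Mrpl11, where the other 3 mice lay at -0.12 to -0.04, -0.07 to 0.00 and -0.15 to -0.05. In 5A3+/del mouse 4 that of Gstm5 was 0.29 (others -0.11 to -0.08).

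Among WT mice, mouse 2 had a gap of 0.11 for Gm10343 (others 0.65 to 0.85), 0.048 for Rbm17 (-0.56 to -0.42) and -1.201 for Mrpl9 (-0.43 to -0.16). WT mouse 3, which differs in sex from the other mice, had -0.73 for Ccr9 (-1.53 to -1.46) and -0.80 for Prtn3 (0.12 to 0.30). WT mouse 4 had -0.35 for Gpatch2 (-0.14 to -0.08), WT mouse 5 had -0.32 for Dnajc2 (-0.09 to -0.01), and WT mouse 1 had a mean gap of 0.30 over complex IV (-0.01 to 0.04).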

How the results depend on the processing

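In 25 alternatives to the interaction test, 79 of 87 named genes kept their direction in each one, and list medians stayed within 1 SD of the mice in 580 of 598 values. limma called no gene in the report's fit, 3 with no filter (Gm10166, Gpatch2 and Rpl12-ps1; 1 with a larger gap in 5A3+/del mice, 2 with a smaller) and 2, both smaller, Gm12483 and Rpl12-ps1, with no replicate block over 19 libraries or with mouse as a random effect over the same 19, which add the HSC library of 5A3+/del mouse 5. All other alternatives called 0, no replicate block over 29 libraries among them. Gaps called in WT and in 5A3+/del mice numbered 1548 and 949 with no replicate block over 29 libraries. In 5A3+/del mice they numbered 879 with the random effect and 961 with quality weights. WT calls numbered 502 without the 3 mice of the largest gap SD. Leaving out each mouse gave 558 to 1227 WT and 286 to 556 5A3+/del calls. The causes were not tested.

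The slope difference was -0.0510 with a pseudocount of 0.1, -0.0699 with no filter, -0.0708 with no normalization, -0.0702 with median scaling and -0.0723 without the 3 mice, none past the threshold (unadjusted), where 3 against 3 mice cannot go below p = 0.10 by the exact permutation test. It was -0.1049 to -0.0402 with 1 mouse left out. The gap SD difference was -0.082 to 0.0375, reversed at 0.0074, 0.0184, 0.021 and 0.0375.

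Ribosomal protein genes had a median of -0.294 unnormalized, -0.2953 with median scaling and -0.3106 with voom on fragments. voom gave 0.1648 for lymphoid priming, -0.0129 for glycolysis, -0.9142 for B cell, -1.7907 for mast cell and -0.4673 for stromal genes. Stromal genes had -0.4827 with a pseudocount of 0.1, and mast cell genes 0.0115 with no filter. Without the 3 mice the medians were 0.1055 for lymphoid, 0.2292 for megakaryocyte, -0.0295 for TCA cycle and -0.0532 for antioxidant genes. With 1 mouse left out, they were -0.0118 to 0.0867 for TCA cycle, -0.0819 to 0.2314 for megakaryocyte and 0.0165 to 0.1264 for glycolysis genes.

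Of the genes that reversed, with no replicate block Orc5 had 0.0244, Srpk2 0.0108 and Cd79b -0.0204, and with the random effect 0.0144, 0.0066 and -0.0131. With 1 mouse left out, Orc5 ranged from -0.2138 to 0.0342, Srpk2 from -0.138 to 0.0785, Cd79a from -0.4743 to 0.2491, Cd79b from -0.3123 to 0.2283, Armc10 from -0.1164 to 0.5542, Dnajc2 from -0.0737 to 0.28 and Slamf1 from -0.0597 to 0.2164. Slamf1 had -0.031 with an FPKM filter of 5. Cd79b had -0.2284 with quality weights. Without the 3 mice, Dnajc2 had -0.0384, Orc5 0.0752, Cd79b -0.4366, Kdr -0.0065 and Slamf1 -0.0144.

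With 9 mice, the interval of a gene of median error reached 0.644 to either side, before any adjustment over genes, and the test needed larger differences. Values under 3 fragments are at the floor. The FPKM + 1 scale flattens low genes such as Napepld.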

Other observations

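Among transcript classes outside the gene lists, pseudogenes had 49 higher and 110 lower gaps in 5A3+/del mice at an unadjusted p under 0.05, and in 68 of 1257 the genotypes did not overlap, 14 higher and 54 lower. Over all genes the shares were 3.24% higher, 3.72% lower and 2.92% without overlap. In WT mice 53 pseudogenes had a called gap towards HSC and 27 towards MPP, and in 5A3+/del mice 3 and 5. Over all genes, 6.63% had a called gap in WT mice and 3.49% in 5A3+/del mice. Long intergenic noncoding RNAs had 333 of 602 differences above 0 and 269 below, with 33 higher and 14 lower at an unadjusted p under 0.05, together 7.81%, near the 6.96% of all genes. miRNA genes had 201 of 385 above 0, and snoRNA genes 114 of 202. Protein-coding genes had 6280 of 12262 above 0, and 6.22% at an unadjusted p under 0.05. None of these classes had a gene past the adjusted threshold.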
